A study of Neurospora crassa with 20 samples.

Results

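The H3K4me3 peaks of WT Neurospora crassa kept in the dark (DD) were set against the H3K9me3 peaks of the same strain and growth condition. All peaks of both lists on the 7 assembled supercontigs, which are chromosomes I to VII, were taken, 4446 narrow peaks for H3K4me3 and 678 broad peaks for H3K9me3, together 5124 of the 21628 regions in the 8 deposited lists. The series measured both marks by ChIP-seq, in which crosslinked chromatin is recovered with an antibody and its DNA sequenced. Its 20 samples came from WT, from a strain without set-1 (also called kmt2, the H3K4 methyltransferase) and from a strain without dim-5 (also called kmt1, the H3K9 methyltransferase). Mycelial mats were moved from light to constant dark for 24 h before harvest, and the light-exposed cultures (LP30), given beside DD, had 30 min of light just before it. The WT DD lists rest on 2 samples for each mark, and each list pools them, so the values below have no replicate error, no test was possible, and all are descriptions.

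In most eukaryotes, trimethylation of histone H3 lysine 4 marks the start of transcribed genes, and trimethylation of lysine 9 marks heterochromatin. In Neurospora crassa, H3K9me3 is laid down by DIM-5 over AT-rich remains of transposons mutated by repeat-induced point mutation. It is bound there by heterochromatin protein 1 (HP1) and directs DNA methylation, and such domains include the centromeres and lie beside the telomeres.

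Peaks were called where a ChIP exceeded its control. The control for H3K9me3 was the H3K9me3 ChIP of the dim5 strain in DD, and the control for H3K4me3 was the H3K4me3 ChIP of the set1 strain, so each control lacks the enzyme that places the mark. At a gene deleted in a control strain the control has no DNA to recover, and there an enriched mark and missing control DNA cannot be told apart. The fold enrichment deposited with each peak compares ChIP with control, at the summit (the most enriched base) of a narrow peak and averaged over a broad one. The H3K4me3 peaks measured 216 to 8473 bp with a median of 1434 bp and a median fold enrichment of 1.73, and 4179 of them (94%) had a q under 0.01. The H3K9me3 peaks measured 206 bp to 348.4 kb with a median of 2540 bp and a median fold of 1.18, and 324 (47.8%) had a q under 0.01. Mycelium was measured in bulk, so peaks of both marks at 1 locus may come from different nuclei, and a weak peak may be a mark in few nuclei or little of it in all.

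Both marks took up similar shares of the genome and almost never the same bases. H3K4me3 peaks covered 6.54 Mb (16.2%) of the 40.46 Mb that the lists and the annotation reach, and H3K9me3 peaks covered 7.14 Mb (17.7%). Bases under both amounted to 25.8 kb, which is 0.395% of the H3K4me3 bases and 0.361% of the H3K9me3 bases. The remaining 26.8 Mb (66.25%) lay in neither list. The chromosomes differed more in the marks than in the unmarked share. H3K9me3 ranged from 14.8% of chromosome I to 21.6% of chromosome VII, and H3K4me3 from 13.7% of chromosome VI to 18.02% of chromosome I, while the share in neither mark stayed between 64.3% on chromosome VII and 67.5% on chromosome V. Chromosome I, the largest, had the densest H3K4me3 peaks, 12.07 per 100 kb, and the lowest H3K9me3 share. The sparsest, 9.13 per 100 kb, were on chromosome VI, which had the second highest H3K9me3 share, 20.5%.

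**Figure D1:**
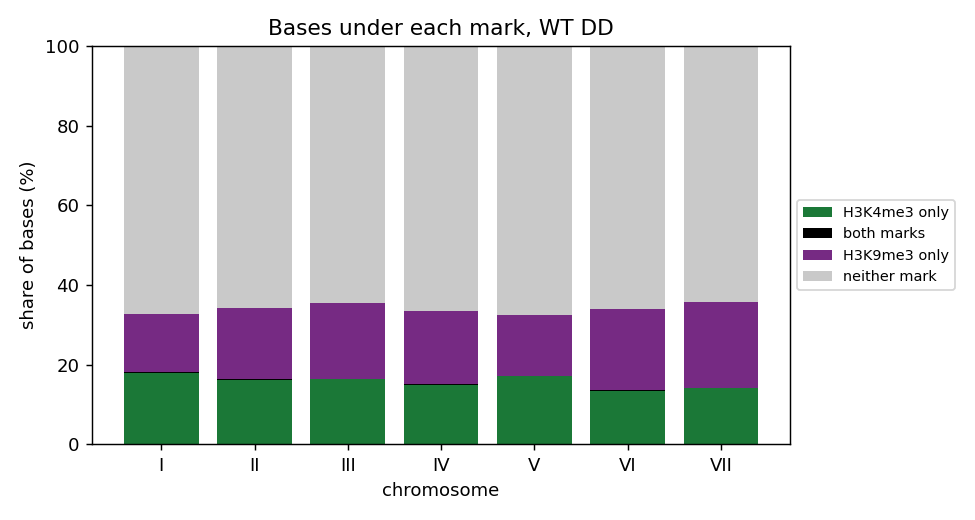
Share of the bases of each chromosome (%) under H3K4me3 peaks alone, H3K9me3 peaks alone, both or neither in WT DD. The unmarked share is between 64.3% and 67.5% on each of the 7, and bases under both, at most 0.249% of a chromosome (chromosome VI), are barely visible.

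H3K4me3 summits mostly lay far from H3K9me3. The median distance from a summit to the nearest H3K9me3 peak was 30.6 kb, with quartiles at 12.3 and 63.0 kb. Of the 4446 summits, 23 lay inside an H3K9me3 peak, 140 (3.15%) were inside or within 1 kb of one, and 957 (21.5%) inside or within 10 kb. By chromosome the median ran from 25.2 kb on chromosome VII and 25.3 kb on chromosome II to 36.6 kb on chromosome IV. The share within 1 kb was 5.21% on chromosome VII and 2.35% to 3.38% on the other 6. The summit farthest from H3K9me3, 326.7 kb away, was over NCU02558 on chromosome I. On chromosome V no summit was farther than 135.1 kb.

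The fold enrichment of H3K4me3 peaks was lowest where the summit fell inside H3K9me3. Outside, the median fold was 1.72 for the 41 summits within 0.5 kb, 1.65 for the 76 at 0.5 to 1 kb, 1.60 for the 94 at 1 to 2 kb and 1.75 for the 557 over 100 kb away. The lower quartile was 1.28 within 0.5 kb and 1.54 beyond 100 kb. The ChIP pileup (reads over the summit, described with the overlaps) had quartiles of 364 and 411 and a maximum of 429 over the list, so these folds leave little room for differences among strong peaks, and like medians do not show like levels of the mark. For the 23 summits inside, the median fold was 1.29 and the median length 341 bp, and 13 of them (56.5%) had a q under 0.01. In WT LP30, whose lists share the control samples with WT DD, 45 summits lay inside, with a median fold of 1.25, and the median distance over all summits was 32.2 kb.

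**Figure D2:**
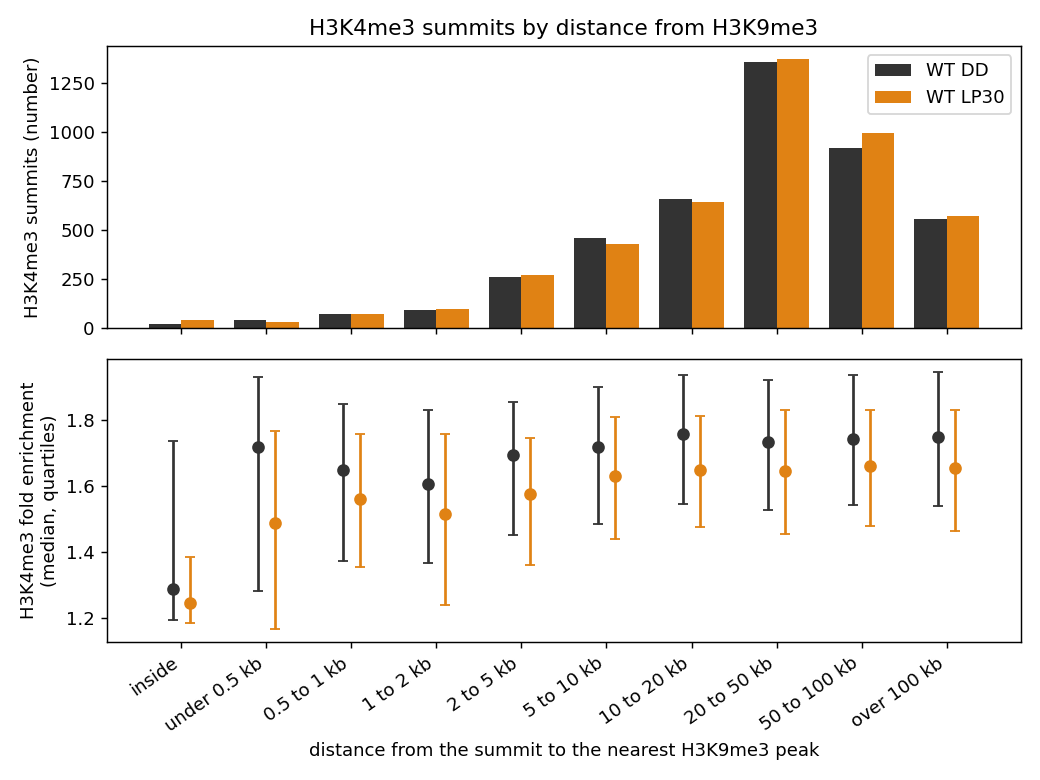
Top, number of H3K4me3 summits in each class of distance to the nearest H3K9me3 peak; bottom, median fold enrichment of those peaks with lower and upper quartiles as bars, for WT DD and WT LP30. In WT DD the class of 20 to 50 kb holds the most summits, 1356, and the 23 inside H3K9me3 have the lowest median fold, 1.29.

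Seen from H3K9me3, the nearest H3K4me3 peak lay at a shorter distance, and the distance was shortest for long domains. As there were 4446 H3K4me3 peaks and 678 H3K9me3 peaks, the distances in the 2 directions do not compare nearness. No baseline was computed. The median distance from an H3K9me3 peak to the nearest H3K4me3 peak was 4.39 kb. It was 6.05 kb for the 197 peaks under 1 kb, 4.95 kb for the 247 of 1 to 5 kb, 4.33 kb for the 61 of 5 to 10 kb and 1.61 kb for the 173 of 10 kb or more. Length went with strength, as 19 of the peaks under 1 kb and 169 of those of 10 kb or more had a q under 0.01, with median folds of 1.12 and 2.22. The long domains held 5.99 of the 7.14 Mb under H3K9me3. Even so, 16 long domains had no H3K4me3 peak within 10 kb, and the most isolated was 55.2 kb from one.

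Most edges of long domains faced an H3K4me3 peak before any other H3K9me3 peak. Walking outward from the 346 edges of the 173 domains of 10 kb or more, H3K4me3 was met first at 282 (81.5%) and H3K9me3 at 59, and no peak came before the end of the chromosome at 5. The median distance was 2.50 kb (quartiles 0.783 and 8.10 kb) where H3K4me3 came first. Over all 1356 edges of H3K9me3 peaks the share was 830 (61.2%). It was 51.8% for peaks under 1 kb, 57.3% for those of 1 to 5 kb and 50% for those of 5 to 10 kb, and from the shortest the median distance was 5.11 kb. H3K4me3 came first on both sides of 122 of the 173 long domains (70.5%) and of 71 of the 197 shortest peaks (36.0%). Both counts depend on the spacing of H3K9me3 peaks as well as on where H3K4me3 lies. They also depend on the numbers of peaks, 4446 for H3K4me3 against 678 for H3K9me3. No baseline was computed, so these shares do not show that H3K4me3 is preferred beside domains.

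Edges with H3K4me3 within 1 kb were most frequent on chromosome I. There 26 of 76 edges of long domains (34.2%) were of this kind, against 4 of 42 (9.52%) on chromosome VI and 7 of 56 (12.5%) on chromosome IV. The other 4 chromosomes had 20% to 26.8%, and over all 7 the share was 80 of 346 edges (23.1%). Where H3K4me3 came first, the median distance was lowest on chromosome V, at 1.70 kb, and highest on chromosome VI, at 5.02 kb. In WT LP30 the same 2 chromosomes gave 1.61 and 5.15 kb.

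Coverage changed steeply at the edges of the long domains. Inside, from 5 kb deep to 250 bp from the edge, H3K4me3 covered 0.289% to 0.795% of the bases in each window of 250 bp. It covered 3.19% of the last 250 bp inside, 9.20% of the first 250 bp outside and 15.3% of the next, and its maximum was 20.7%, at 1500 to 1750 bp outside. From 5 to 10 kb outside it stayed between 12.0% and 17.1%. The genome-wide 16.2% includes the 17.7% of bases under H3K9me3, of which H3K4me3 covered 0.361%. It is therefore lower than the share outside H3K9me3, and is no baseline for these windows. Annotated genes followed the same course, with 14.5% of the last 250 bp inside, 32.5% of the first 250 bp outside and 67.4% at 1500 to 1750 bp. Of the 314 first genes wholly outside long domains, 137 (43.6%) carried an H3K4me3 summit, close to the 40.9% of all 10397 genes. Genes that cross the edge were passed over, as were edges where another H3K9me3 peak came before the gene. Each gene was counted once. Within the domains, H3K4me3 covered 1.07% of the outermost 1 kb and 0.263% of the bases deeper than that.

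**Figure D3:**
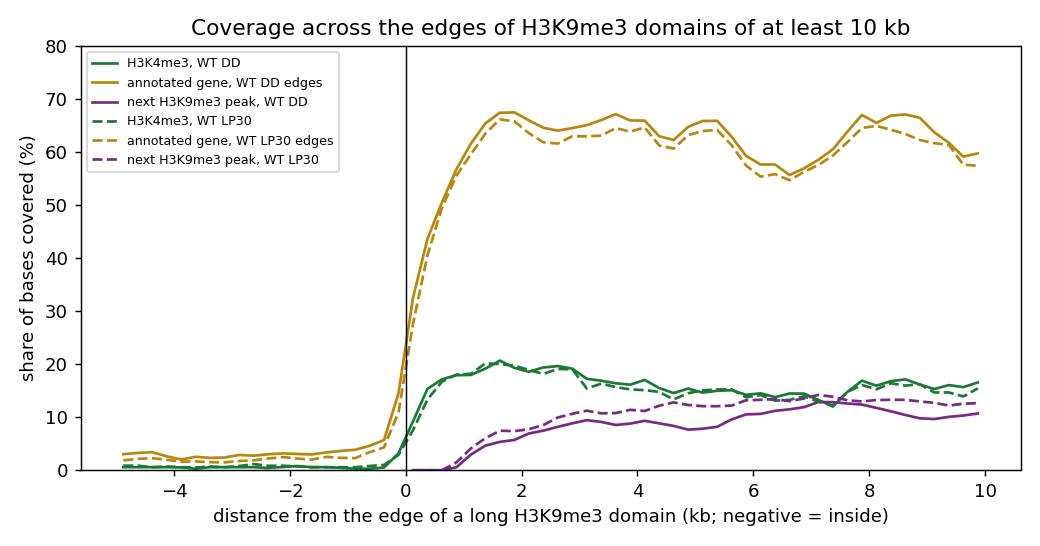
Share of bases (%) under H3K4me3 peaks, annotated genes and the next H3K9me3 peak in windows of 250 bp across the edges of H3K9me3 domains of 10 kb or more, by distance from the edge in kb (negative inside), in WT DD (solid) and WT LP30 (dashed). In WT DD, H3K4me3 rises from under 0.8% deep inside to 20.7% at 1500 to 1750 bp outside, where genes reach 67.4%.

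The longest domain of each chromosome, 213.6 to 348.4 kb long, showed how far the distances to H3K4me3 can differ. The longest of all, on chromosome VII (2134736 to 2483087, NC12), had H3K4me3 peaks 0.203 kb to its left over NCU02450 (fold 1.83) and 0.091 kb to its right over NCU02438 (fold 1.75). The 237.5-kb domain on chromosome I (3735097 to 3972634) had them at 0.322 and 0.452 kb, the second over NCU09892. That gene occupies a gap of 2.06 kb, and its H3K4me3 peak reaches 67 bp into a further domain of 12095 bp on the other side. The 271.9-kb domain on chromosome II had H3K4me3 at 1.84 kb and 0.290 kb.

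The other 4 were less closely flanked on at least 1 side. On chromosome V the distances were 13.6 and 3.55 kb, and on chromosome IV they were 19.3 and 8.15 kb. On chromosome III the left side met another H3K9me3 peak after 0.889 kb and H3K4me3 only at 42.4 kb, while the right side had H3K4me3 at 0.782 kb over NCU07815 with a fold of 1.12. On chromosome VI H3K4me3 lay 3.84 kb to the left, and to the right an H3K9me3 peak came at 1.39 kb and H3K4me3 at 75.8 kb. Among the 7, the domain on chromosome II held 1 H3K4me3 peak, over NCU16528, and the others held none.

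H3K4me3 and H3K9me3 peaks overlapped at 56 places, and most overlaps were short and at an edge. They joined 56 H3K4me3 peaks (1.26% of the list) with 50 H3K9me3 peaks (7.37%). In 39 the H3K4me3 peak crossed an edge of the H3K9me3 peak, in 16 it lay inside, and in 1 it spanned the whole H3K9me3 peak. The overlap was 7 to 8417 bp with a median of 219 bp. In 26 of the edge cases it was shorter than the shortest H3K4me3 peak of the list (216 bp). An overlap inside takes in the whole H3K4me3 peak, so by definition it cannot be that short. Chromosome I had 18 of the overlaps, chromosomes II and III had 9 each, VII had 8, VI had 5, V had 4 and IV had 3. With a q under 0.01 in both lists 36 remained, 29 at edges and 7 inside.

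The H3K4me3 peaks that crossed an edge differed with the length of the H3K9me3 peak. At the 20 crossings of domains of 10 kb or more, their median fold was 1.88 and their median length 1643 bp, and at the 19 of shorter H3K9me3 peaks 1.52 and 886 bp, beside 1.73 and 1434 bp for the whole list. Of the 39, 36 had a q under 0.01. A gene lay under 33 of these 39 H3K4me3 peaks and under 25 of the shared stretches, while 97.1% to 99.3% of all H3K4me3 summits, by chromosome, fell within genes. The domain of 52.8 kb on chromosome I (4043236 to 4095996) was crossed at both ends, by a peak at NCU10073 that shared 74 bp with it and by a peak at NCU09802 that shared 198 bp. Their folds were 2.07 and 2.06. The longest edge overlap after that at NCU09968 was 677 bp, beside NCU01835 on chromosome II, where a peak of 2289 bp (fold 2.28) met an H3K9me3 peak of 2446 bp (fold 2.32).

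The overlaps inside H3K9me3 peaks involved weak and short H3K4me3 peaks. The 16 had a median fold of 1.26 and a median length of 404 bp, and 8 had a q under 0.01. They divided by the length of the H3K9me3 peak. In the 8 inside domains of 10 kb or more, the median H3K4me3 fold was 1.55 and 6 had a q under 0.01, and in all 8 the H3K9me3 peak passed that threshold too. In the 8 inside shorter H3K9me3 peaks, the median fold was 1.21, 2 H3K4me3 peaks passed it, and 3 had an H3K9me3 peak that did. A gene lay under 9 of the 16. Of all H3K4me3 summits of the list, 97.1% to 99.3% fell within genes, by chromosome. In WT LP30, 38 H3K4me3 peaks crossed an edge, 36 lay inside and 3 spanned an H3K9me3 peak.

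**Figure D4:**
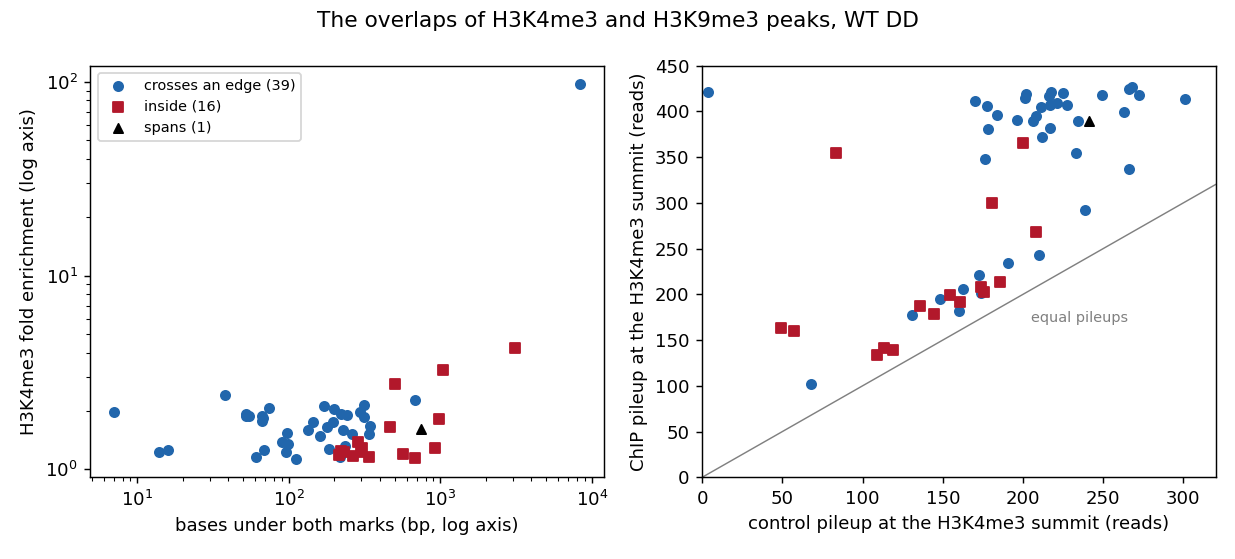
The 56 overlaps in WT DD by position. Left, H3K4me3 fold enrichment against the bases under both marks, both on log axes. Right, ChIP pileup (reads) at the H3K4me3 summit against the control level that macs2 set against it (control pileup), with a line where both are equal. The point at 8417 bp and fold 96.9 is the peak over NCU09968 and NCU09969, with a ChIP pileup of 421 and a control pileup of 3.36.

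At the strongest of these peaks the control was low. From fold enrichment and p, the reads over each H3K4me3 summit in the ChIP and the control level set against them were recovered (the ChIP and control pileups). That control level is the one macs2 used in its test, and it need not equal the control reads at the summit. Over the whole list the ChIP pileup had quartiles of 364 and 411 and a maximum of 429, and 3473 of 4446 summits had 350 or more. The control pileup had a median of 221 and lay between 180 and 271 at the 5th and 95th percentiles. A control pileup under 100 occurred at 12 of the 4446 summits, and 5 of these 12 were among the 23 inside H3K9me3. The ChIP pileup at those 23 had a median of 201.

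The longest overlap, 8417 bp on chromosome VI, covered NCU09968 (309546 to 315476) and reached into NCU09969 (314113 to 320071), which the study calls sly-1. Its H3K4me3 peak of 8473 bp had the highest fold of the list, 96.9, and lay with 99.3% of its length in an H3K9me3 peak of 12.2 kb with a fold of 3.28. The ChIP pileup was 421, as at many summits of the list, and the control pileup of 3.36 was the lowest of all 4446. Over the rest of NCU09969, 2 further H3K4me3 peaks of 1.04 and 0.50 kb lay inside the same domain, with folds of 3.26 and 2.75, ChIP pileups of 163 and 160 and control pileups of 49.3 and 57.4. These 3 folds thus rest on a control that is far below that of other loci, and the ChIP pileups of the last 2 are below the 5th percentile of the list, 258. The dim5 DD list, called against the same control, held an H3K4me3 peak at the first of the 3 and none at the other two. The study also recovered WT chromatin of this region with 1 antibody and then with the other. From this sequential ChIP it concluded that both marks lie on the same nucleosome here.

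NCU16528 on chromosome II (1152277 to 1154521) was the deepest overlap. Its H3K4me3 peak of 3134 bp had a fold of 4.23 and its summit lay 60326 bp from the nearest edge of a domain of 271.9 kb. The ChIP pileup was 355 and the control pileup 83.2. It is the lone annotated gene that this domain touches. WT LP30 also had an H3K4me3 peak there, and the dim5 DD list had none.

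NCU10069 on chromosome I had a control near the usual level. A peak of 977 bp over this gene, with a fold of 1.82, a ChIP pileup of 365 and a control pileup of 200, had its summit 20.5 kb from the edge of a domain of 41.8 kb. The dim5 DD and WT LP30 lists held an H3K4me3 peak there as well, and the set1 DD and WT LP30 lists an H3K9me3 peak. These lists share control samples with WT DD. On chromosome III, a peak of 919 bp over NCU08521 (fold 1.28, control pileup 208) lay with its summit 1.24 kb inside a domain of 30.7 kb, and a peak of 467 bp over NCU07519 (fold 1.66, control pileup 181) lay inside an H3K9me3 peak of 5.29 kb. The dim5 DD list held an H3K4me3 peak at NCU08521 and none at NCU07519. At NCU09510 on the same chromosome the summit of a peak with a fold of 1.92 was 8 bp inside the edge of a domain of 16.4 kb.

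The single spanning case was dim-5 itself (NCU04402, chromosome IV, 3480589 to 3482273). An H3K4me3 peak of 1012 bp with a fold of 1.61 and a control pileup of 241 covered an H3K9me3 peak of 750 bp with a fold of 1.195. The control for H3K9me3 comes from the strain in which this gene is deleted, so H3K9me3 and missing control DNA cannot be told apart here. The other overlaps picked by length or fold were weak in at least 1 mark. They lay over NCU08431 (H3K4me3 fold 1.19 and H3K9me3 fold 1.13) and beside NCU00510 (1.15 and 1.14), NCU14131 (1.49 and 1.17) and the tRNA gene NCU15339 (1.38 and 1.13).

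Counted by gene, those with H3K9me3 held H3K4me3 less often than all genes did on 5 of the 7 chromosomes. Of the 10397 genes, 4525 (43.5%) held part of an H3K4me3 peak, 484 (4.66%) part of an H3K9me3 peak, 87 both (17.98% of the genes with H3K9me3) and 5475 (52.7%) neither. The marks need not share bases in a gene that holds both. Genes with H3K9me3 made up 1.82% of the genes on chromosome I and 1.55% on chromosome II, and there 21 of 45 (46.7%) and 9 of 17 (52.9%) also held H3K4me3, near the 49.1% and 43.2% of all genes on these chromosomes. On the other 5 chromosomes, where 3.36% to 9.21% of genes had H3K9me3, 12.3% to 17.2% of them held H3K4me3, against 37.0% to 45.2% of all genes there. None of these differences was tested. Chromosome III had the most genes with H3K9me3, 122, of which 16 held both.

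Genes of the heterochromatin machinery, listed together with the methyltransferase genes set-1 and set-2, mostly held an H3K4me3 peak. Of the 10 genes listed, 8 held an H3K4me3 peak and 2 an H3K9me3 peak, against 43.5% and 4.66% of all genes. The H3K4me3 peaks were over dim-5, hpo, which encodes HP1, dim-7, dim-8, dim-9 and cul-4, which encode partners of DIM-5 in its complex, set-1 and set-2, the H3K36 methyltransferase. Folds were 1.31 to 2.01 except at set-1, the gene deleted in the H3K4me3 control, with 5.24 and a control pileup of 76.9. At set-1 the mark and missing control DNA cannot be told apart. The genes dim-2, the DNA methyltransferase, and set-7, the H3K27 methyltransferase, held neither mark, with H3K4me3 at 2156 and 2312 bp. The H3K9me3 peaks were the one at dim-5, the gene deleted in the H3K9me3 control, and a patch of 206 bp at dim-9 with a fold of 1.19. Neither had a q under 0.01. The median distance of the 10 genes from H3K9me3 was 28.4 kb, against 25.1 kb for all genes.

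Of 14 light and clock genes, 7 held an H3K4me3 peak and 1 an H3K9me3 peak, about the shares of all genes, 43.5% and 4.66%. H3K4me3 lay over wc-1 and wc-2, the blue-light receptor and its partner, frh, the helicase of the clock complex, the carotenoid genes al-2 and al-3, the transcription factor gene sub-1 and the photolyase gene phr, with folds of 1.14 at al-3 to 1.97 at wc-2. The clock gene frq (NCU02265, chromosome VII) held no peak of either list, and was 920 bp from an H3K4me3 peak and 115.7 kb from an H3K9me3 peak. The study, however, reports H3K9me3 at frq in WT, within a small upstream transcript. The distance to a listed peak thus does not show that the mark was absent from frq. At vvd (NCU03967), a blue-light photoreceptor gene, there was an H3K9me3 peak of 321 bp with a fold of 1.11, and H3K4me3 was 2382 bp away. Its −log10 q was 0.406, far from a q of 0.01.

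The closest of these genes to a strong domain was al-3 (NCU01427), 0.309 kb from a domain of 32.2 kb on chromosome V with a fold of 2.95. The conidiation gene con-6 (NCU08769) was 1.40 kb from an H3K9me3 peak of 7.54 kb on chromosome III and 6219 bp from H3K4me3. The other genes without an H3K4me3 peak, al-1, con-10, ccg-1 and cry, were 2103 to 7042 bp from one and 3.12 to 20.8 kb from H3K9me3.

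Among further loci that the study describes, NCU02913 and NCU16472 had weak peaks in the dark. NCU02913 on chromosome I held both, an H3K4me3 peak of 341 bp with a fold of 1.15 inside an H3K9me3 peak of 1377 bp with a fold of 1.10. Its neighbour NCU16472 held an H3K9me3 peak of 231 bp with a fold of 1.13 and no H3K4me3. None of these 3 peaks had a q under 0.01. By contrast NCU10058, NCU16377 and NCU10059, elsewhere on the same chromosome (3708802 to 3714202), filled a gap between domains. NCU10058 lay 86 bp from an H3K9me3 peak of 8.80 kb and NCU10059 lay 233 bp from one of 15.35 kb, and all 3 genes held H3K4me3 peaks, with highest folds of 2.05, 1.39 and 1.47.

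Gaps between neighbouring H3K9me3 peaks without H3K4me3 were mostly short. A short gap has less room for a summit, and no baseline for gap length was computed. Of the 671 gaps, 257 (38.3%) held no H3K4me3 summit, and these had a median length of 1.86 kb. The gaps with a summit had a median of 47.8 kb and a median of 6 summits, and the fullest held 108, on chromosome I. Gaps without a summit were 21 of 122 (17.2%) on chromosome I and 65 of 120 (54.2%) on chromosome III. The longest gap without one measured 49.8 kb, on chromosome IV.

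Stretches with neither mark were short between most neighbouring peaks, yet the long ones made up much of the genome. There were 5070 stretches with a median length of 3.19 kb. Among them, 794 were at least 10 kb long, 186 at least 20 kb and 46 at least 30 kb. The 794 covered 13.3 Mb, which is 32.9% of the genome and 49.6% of the unmarked bases. They held 3323 genes entirely, 32.0% of all genes, which is near their 32.9% share of the genome.

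Unmarked stretches, long or not, mostly lay between H3K4me3 peaks. Of the 794, 593 (74.7%) had H3K4me3 at both ends, against 4016 of all 5070 (79.2%), while 184 had 1 mark at each end and 17 had H3K9me3 at both ends. Stretches bounded by 1 mark at each end were longer, with a median of 4.57 kb and 23.3% of them at least 10 kb, than those between H3K4me3 peaks (3.13 kb and 14.8%) or between H3K9me3 peaks (1.86 kb and 6.64%). None of the 9 stretches at chromosome ends reached 10 kb. Chromosome length was taken as the last base in a list or the annotation, which can cut short the stretch at that end. Chromosome VI had the most long stretches per Mb, 22.8, and 36.0% of its bases in them. Chromosome III had the fewest, 16.9 per Mb and 27.1%.

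**Figure D5:**
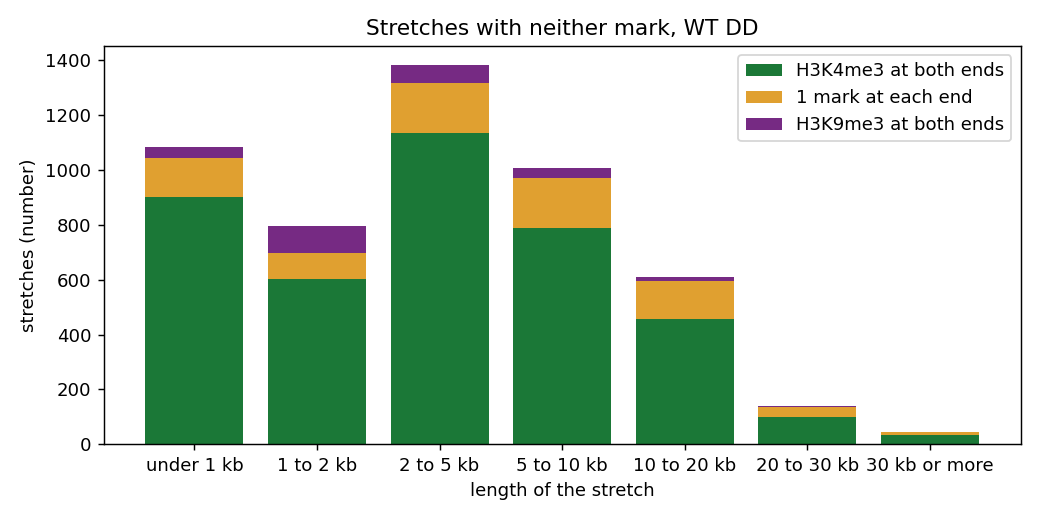
Number of stretches with neither mark in WT DD by length, split by the marks at their ends. Stretches between H3K4me3 peaks are the most frequent in each length class, and 34 of the 46 stretches of 30 kb or more are of that kind.

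The longest unmarked stretch measured 54.4 kb on chromosome VII (3715672 to 3770118). It lay between H3K4me3 peaks and held 22 genes, from NCU05754 to NCU05770, among them pre-2, a pheromone receptor gene, poi-2 and the catalase gene cat-2. The next, 50.4 kb on chromosome II, held 15 genes with gpig-1. The stretch of 50.4 kb on chromosome V from NCU01048 to NCU01065 had H3K4me3 at 1 end and H3K9me3 at the other and held 20 genes, with the glycoside hydrolase genes gh61-4 and gh47-3. A stretch of 49.8 kb on chromosome IV had H3K9me3 at both ends and held 12 genes, with acon-3 and the zinc transporter gene tzn-1.

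The other 6 of the 10 longest were 42.4 to 46.2 kb long and held 10 to 20 genes each. On chromosome V they ran from NCU08858 to NCU14053, with parp, and from NCU01086 to NCU01096, and on chromosome VII from NCU06166 to NCU15326 and from NCU05821 to NCU05831. On chromosome IV a stretch with neg-1 and col-22 began near dim-5, and on chromosome III another ran from NCU00244 to NCU15831. Annotated genes covered 46.8% to 65.9% of the bases in each of the 10. Absence from both lists says that neither ChIP passed the cutoff there, not that the marks were missing. For WT LP30, called against the same controls, the genome share in neither mark was 66.9%, with 805 stretches of at least 10 kb. These totals do not say which stretches recur. Of the 794 in WT DD, 455 held at least 1 base of a WT LP30 H3K4me3 peak, 94 at least 1 base of a WT LP30 H3K9me3 peak, and 279 (35.1%) neither. Most of these peaks reached in over an end of the stretch, as 67 stretches held a whole WT LP30 H3K4me3 peak, 35 a whole H3K9me3 peak and 699 (88.0%) neither. A base of a dim5 DD H3K4me3 peak lay in 615 (77.5%) and a whole one in 169, and for set1 DD H3K9me3 these were 195 (24.6%) and 138. These lists share control samples with WT DD. The longest stretch, with cat-2, held at least part of an H3K4me3 peak of WT LP30 and of dim5 DD and of an H3K9me3 peak of set1 DD.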

How the data were processed

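Reads (the labels state 50 M single-end reads of 50 bp per sample) were mapped by the authors to the NC12 build with BWA, and peaks were called with macs2, whose version is not given in the sources used here. The authors deposited lists of peaks called on pooled replicates with a p cutoff of 0.1, broad for H3K9me3 and narrow with a summit for H3K4me3. Each list gives, as deposited, the position, a whole-number score (10 times a −log10 value), the fold enrichment (a ratio to the control), the −log10 p-value and the −log10 q-value. The lists were normalized separately and hold no read totals, so the depth behind a peak is unknown and no interval for counting error is given. Of the 8 lists, 6 were used.

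Peaks counted as overlapping when they shared at least 1 bp, as checked with bedtools 2.31.1. Other values were computed with Python 3.11.15, numpy 2.4.6, pandas 2.3.3 and scipy 1.17.1. Edge means either end of an H3K9me3 peak, and distances outward run to the nearest end of the next H3K4me3 peak. Joins of H3K9me3 peaks within 1 kb, q under 0.01, a fold of at least 1.5 and other lengths and overlaps were tried as alternatives. Supercontig length was taken as the last base in a list or the annotation, a lower bound. Gene spans and symbols came from the RefSeq annotation of NC12, which gives no strand here. Its chromosomes were matched to the supercontigs by number, and 97.1% to 99.3% of the H3K4me3 summits then fell within genes. Pileups k (ChIP) and λ (control) were solved from the fold (k + 1)/(λ + 1), in which macs2 adds 1 to each, together with its Poisson p. This gave values for 4446 peaks, and 96.7% of k were whole within 0.02. The scripts were tested on simulated data with known overlaps, distances and pileups. Sequences and base composition were not analysed here.

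Named genes are those the study names at loci with these marks, those at the 10 strongest H3K4me3 peaks with a summit in H3K9me3, at the 10 longest overlaps and in the 10 longest unmarked stretches, and those beside the longest domain of each supercontig. Further genes at edge overlaps and at the farthest summit were chosen after their values were seen. The count of whole peaks inside unmarked stretches was also added after seeing the data. NCU16628, which the study also names, has no match in the annotation used here. The peaks and gene lists were chosen with earlier results of these data known.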

Additional observations from a re-analysis of the deposited data

Results flagged for a closer look

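On small supercontigs outside the 7 chromosomes, where no comparison above was made, the WT DD list also held H3K9me3. There were 13 such peaks on 12 small supercontigs, 565.4 kb together, with folds of 1.69 to 4.99. H3K4me3 had 3 peaks outside the chromosomes, 9.02 kb in all, with folds of 1.09 to 1.15, and 2 of these 3 overlapped H3K9me3.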

How the results depend on the processing

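Of 43 alternative values for 8 results, 19 stayed within 1.5 times the first count or within the 95% interval of the first median or share. These intervals treat bases, summits or edges as independent, which neighbours are not, so they are too narrow. The count of 19 therefore does not measure stability. The 56 overlaps became 36 with a q under 0.01 in both lists, 26 with a fold of at least 1.5 in both, 36 when the overlap had to reach the DNA of a nucleosome, 22 when it had to take up at least 50% of the H3K4me3 peak and 23 when the summit had to lie inside. Of 39 edge crossings, 20 were at H3K9me3 peaks of at least 5 kb and the same number, 20, at those of at least 10 kb. The 16 inside became 7 with a q under 0.01, 8 for H3K9me3 of at least 10 kb and 36 in WT LP30. The 1 spanning case became 0 with a q under 0.01, 0 at both minimum lengths and 3 in WT LP30. The median distance of 30.6 kb from summit to H3K9me3 became 44.9 kb with a q under 0.01 and 51.1 kb with a fold of at least 1.5. The median from an H3K9me3 edge outward to H3K4me3, 8.69 kb over all H3K9me3 peaks, became 5.27 kb with a q under 0.01, 5.54 kb for peaks of at least 5 kb and 4.47 kb for those of at least 10 kb. The share in neither mark, 66.25%, became 68.0%, 70.3% and, in WT LP30, 66.9%. The 794 stretches of at least 10 kb compare with 1800 of at least 5 kb and 186 of at least 20 kb. These shifts follow from counting fewer or other peaks. After seeing the data, the overlaps were also counted without peaks over dim-5, set-1, NCU09968 and NCU09969, which left 52, and with a control pileup of at least 100, which left 51. No paired analysis was possible because the lists pool the replicates, and for the same reason no replicate could be left out.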
